A study of Sus scrofa with 20 samples.

Results

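Collagen chains, the protein subunits of the fibres, networks and microfibrils of the extracellular matrix, were compared between Duroc and PiNN pigs in longissimus muscle. They were taken as all array probe sets that carry a single gene symbol of the form COL, a number, A and a number. This gave 100 of the 45922 porcine probe sets tested, and they belong to 38 of the 13609 named genes. For 27 of these genes there were several probe sets and for 11 there was 1. Each gene was summarized by its brightest probe set, the one with the highest mean over all 20 arrays.

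Muscle RNA of 10 Duroc and 10 PiNN pigs was hybridized to Affymetrix Porcine Snowball arrays, and each animal had an array of its own. Duroc and PiNN are both pure-bred, adult at sampling and drawn from commercial lines, and PiNN is Pietrain that is homozygous negative for malignant hyperthermia syndrome, the stress disorder caused by a ryanodine receptor variant. The labels place sampling on the day before slaughter, whereas the methods describe collection after slaughter for the methylation libraries of the same study, and the sources used here do not settle it for the array samples. A supplement of the study lists sex by breed for the animals with methylation libraries but without animal numbers, so sex was not assigned to the array animals, and breed cannot be told apart from anything else that differed between these lines. Signals of probe sets are given in log2 units, in which a step of 1 is a 2-fold change, and differences are Duroc minus PiNN. How precise these values are depends on the number of arrays and on the spread between animals. Array medians ran from 4.61 to 4.73. The 69 background probe sets averaged 3.93, with 3.89 on Duroc arrays, 3.96 on PiNN arrays and the highest value, 4.21, for PiNN animal 49. Of the collagen probe sets, 81 had a mean above that background, and so did the brightest probe set of 37 of the 38 genes. Muscle fibre markers were bright in both breeds, at 12.71 ± 0.09 in Duroc and 12.70 ± 0.13 in PiNN (mean log2 signal of 9 genes, SD, n = 10 each).

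Collagen chains assemble in the endoplasmic reticulum into trimers wound as a helix, and most are secreted and built into larger structures outside the cell. Types I and III make the banded fibrils of the endomysium and perimysium, the connective tissue layers around muscle fibres and fibre bundles, and type V sets fibril width. Type IV is the network of the basement membrane that wraps each muscle fibre and capillary, and type VI forms beaded microfibrils that link the basement membrane to the fibrils.

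The signal of COL6A3, the long chain of type VI microfibrils, was lower in Duroc muscle at most of its probe sets, and no other collagen gene passed the test between breeds. Of the 100 collagen probe sets, 7 passed at an adjusted p under 0.05 from limma (7%), where 4.17% of all tested probe sets did so. All 7 were lower in Duroc, a direction in which 1.41% of all tested probe sets passed, and none was higher in Duroc, where 2.76% did. They all belong to COL6A3 and so do not count as separate genes. Whole muscle was measured, so fewer cells of a type and less RNA per cell cannot be told apart. Counted by the brightest probe set, 1 of 38 genes passed (2.63%), below the 6.39% found over all named genes, of which 2.33% were lower in Duroc. At an unadjusted p under 0.05 there were 16 collagen probe sets (17.3% of all tested probe sets reached it) and 5 genes. Breed means were lower in Duroc for 28 of the 38 genes (73.7%), compared with 54.9% of all tested probe sets. The median difference over the 38 genes was -0.06, beside -0.02 over all tested probe sets. All tested probe sets include unnamed and dimmer ones. The share of lower means and the median difference were not computed over the brightest probe sets of all named genes. No collagen probe set separated the breeds completely, where 0.122% of all tested probe sets did.

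**Figure D1:**
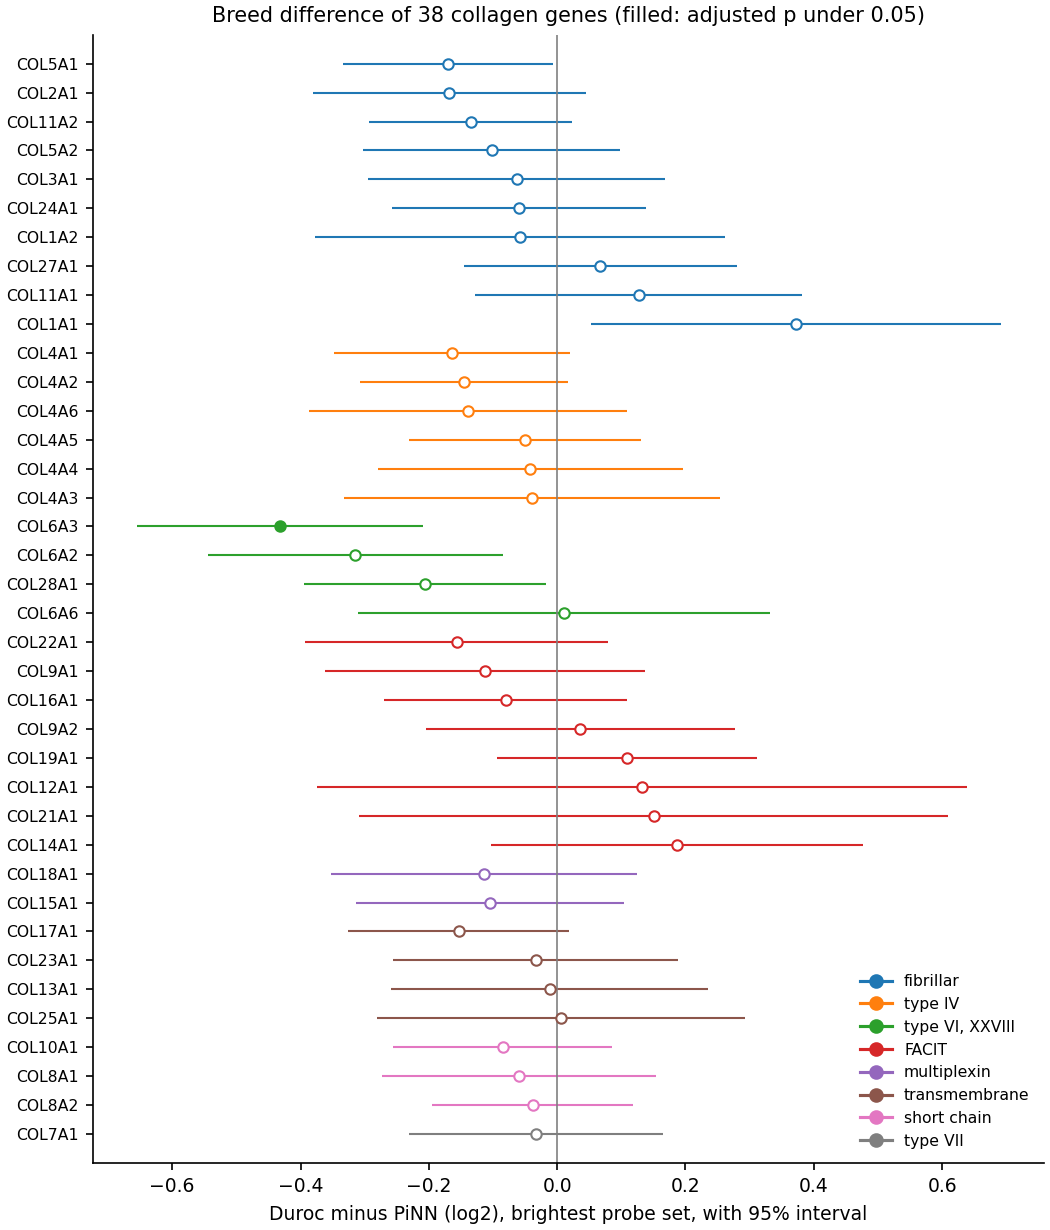
Difference between breeds (Duroc minus PiNN, log2, x axis) of the brightest probe set of each of the 38 collagen genes, with the 95% interval from limma, ordered by subclass and coloured by it. The filled point is COL6A3 at -0.43, the only gene with an adjusted p under 0.05, and 28 of the 38 points lie left of 0.

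COL6A3 was represented by 10 probe sets, all with a mean above background. The brightest, SNOWBALL_024029_s_st, ran from 8.54 to 9.42 in Duroc with a median of 8.998, and from 9.14 to 9.63 in PiNN with a median of 9.40. The breeds overlapped, but 6 Duroc animals lay below the lowest PiNN animal and 5 PiNN animals lay above the highest Duroc animal. Its mean was 8.98 ± 0.31 in Duroc and 9.42 ± 0.15 in PiNN (SD, n = 10 each), which differ by -0.43 (standard error 0.11, limma adjusted p = 0.0241). The lowest Duroc signals were those of animals 59, 38 and 42, and the highest was that of animal 58. Without PiNN animal 36, which had the highest signal of all, the adjusted p was 0.0503, and with any other single animal left out the gene still passed.

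The other 6 COL6A3 probe sets that passed differed by similar amounts. SNOWBALL_018429_s_st ran from 6.69 to 7.19 in Duroc with a median of 6.95, and from 7.19 to 7.56 in PiNN with a median of 7.33. The breeds came close to separating there, as 9 Duroc animals lay below the lowest PiNN animal and 9 PiNN animals above the highest Duroc animal, with means that differ by -0.42 (standard error 0.08, limma adjusted p = 0.00535). The largest COL6A3 difference was that of SNOWBALL_024027_s_st, with a mean of 7.47 ± 0.27 in Duroc and 8.10 ± 0.30 in PiNN (SD, n = 10 each), which differ by -0.63 (limma adjusted p = 0.00599). SNOWBALL_018441_s_st, SNOWBALL_018275_s_st, SNOWBALL_024025_s_st and SNOWBALL_024026_st differed by -0.42, -0.43, -0.40 and -0.43, with adjusted p from 0.0115 to 0.0393. With each animal left out in turn, 4 of the 7 (SNOWBALL_018429_s_st, SNOWBALL_024027_s_st, SNOWBALL_018441_s_st and SNOWBALL_018275_s_st) passed in all 20 fits, while SNOWBALL_024025_s_st passed in 12 and SNOWBALL_024026_st in 8.

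The other 3 COL6A3 probe sets did not pass. SNOWBALL_018301_st differed by -0.09, SNOWBALL_024028_st by 0.05 and SNOWBALL_039606_st by -0.08, with adjusted p from 0.723 to 0.941. Of the 7 that passed, 6 carry the suffix _s_, which in Affymetrix naming marks probe sets whose probes match several transcripts, and these need not be transcripts of 1 gene. Between animals, the probe sets that passed had a median pairwise Pearson r of 0.72 in Duroc (range -0.20 to 0.93) and 0.63 in PiNN (range 0.33 to 0.92) over 21 pairs. Over the 24 COL6A3 pairs that hold at least 1 probe set that did not pass, the median r was 0.22 in Duroc (range -0.24 to 0.60) and 0.07 in PiNN (range -0.66 to 0.60). None of the 3 that did not pass carries the suffix, and SNOWBALL_024026_st is the only COL6A3 probe set without it that passed. What the 3 that did not pass detect was not tested.

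COL6A2, a shorter chain of the same type VI trimer, had lower means in Duroc at all 3 of its probe sets, and none passed. Its brightest probe set ran from 8.45 to 9.30 in Duroc with a median of 8.97, and from 8.89 to 9.60 in PiNN with a median of 9.25. The breeds overlapped, with 3 Duroc animals below the lowest PiNN animal. The difference was -0.31 (standard error 0.11, 95% interval -0.54 to -0.08, adjusted p = 0.118 from limma). The other COL6A2 probe sets differed by -0.30 (SNOWBALL_036068_st, adjusted p = 0.0518) and -0.22 (adjusted p = 0.153), and SNOWBALL_036068_st passed in 5 of 20 fits with 1 animal left out. COL6A6, an alternative to the long chain, differed by 0.01 (95% interval -0.31 to 0.33). COL28A1, a chain related to type VI, had a mean of 3.78 ± 0.16 in Duroc and 3.99 ± 0.22 in PiNN (SD, n = 10 each), at the level of the background probe sets, so its -0.21 gives no size for a change. COL6A1 was not analysed here.

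**Figure D2:**
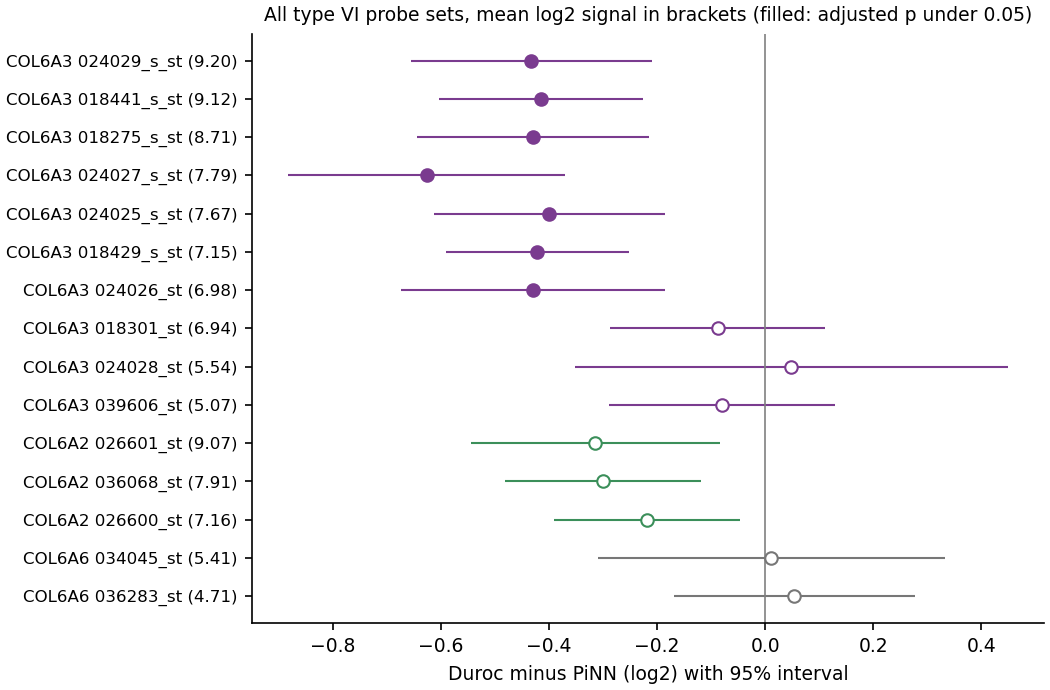
Difference between breeds (Duroc minus PiNN, log2, x axis) of all 15 probe sets of COL6A3, COL6A2 and COL6A6, with the 95% interval from limma and the mean log2 signal over 20 arrays in brackets. Filled points mark the 7 COL6A3 probe sets with an adjusted p under 0.05, which lie from -0.63 to -0.40, and the other 3 COL6A3 probe sets lie between -0.09 and 0.05.

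Levels that could move with type VI were set beside it. The 9 fibroblast markers measured of 10 listed, all above background, had a mean signal of 7.93 ± 0.18 in Duroc (range 7.63 to 8.28) and 7.92 ± 0.28 in PiNN (range 7.497 to 8.44; SD, n = 10 each). None of the 9 passed the test, where 6.39% of all named genes did. The median of the marker differences was -0.08 while the difference of the mean level was 0.02. With that level as a covariate, a fit chosen after seeing the data, COL6A3 differed by -0.44 (adjusted p = 0.0126 from limma). The level differed so little between breeds that this fit could hardly move the difference. The part of fibroblasts in the difference was not tested. Array background moved with COL6A3 inside each breed, with r = 0.65 in Duroc and 0.41 in PiNN, and with COL6A2, with r = 0.67 and 0.35 (n = 10 each, descriptions without a test). With array background as a covariate the COL6A3 difference was -0.35 (adjusted p = 0.0414 from limma) and that of COL6A2 was -0.24 (adjusted p = 0.220).

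Other cell types that make collagen or surround it gave the following levels, and the share of all named genes that passed was 6.39%. Endothelial markers averaged 6.78 in Duroc and 6.73 in PiNN, and none of 8 passed. Adipocyte markers averaged 6.68 in Duroc and 6.58 in PiNN (none of 6 passed), and leukocyte markers averaged 5.12 in Duroc and 5.23 in PiNN (none of 5 passed). Among 5 pericyte and smooth muscle markers, with means of 7.26 in Duroc and 7.21 in PiNN, 1 passed and 2 had a higher mean in Duroc. The median difference over the 5 was -0.16. The 1 that passed, RGS5, differed by 0.84 (adjusted p = 0.00327 from limma) and was chosen after its value was seen. Schwann cell markers averaged 5.99 in Duroc and 6.07 in PiNN, and satellite cell markers 4.64 in Duroc and 4.63 in PiNN, and none of these 5 genes passed. Neither of the 2 tenocyte markers measured had a mean above background, with levels of 2.60 in Duroc and 2.55 in PiNN.

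The 10 genes of fibrillar chains showed no change that passed the test, and 7 had a lower mean in Duroc, with a median difference of -0.06. COL1A1 and COL1A2, which form the type I trimer, had mean differences of opposite sign at their brightest probe sets, and neither passed. COL1A1 ran from 9.03 to 10.14 in Duroc with a median of 9.67, and from 8.76 to 9.97 in PiNN with a median of 9.30, at its brightest probe set. Most of both ranges overlapped. The difference, 0.37 (standard error 0.15, 95% interval 0.05 to 0.69, adjusted p = 0.198 from limma), was the largest on the Duroc side among the collagen genes. It was not shared by the other 4 COL1A1 probe sets, which differed by 0.05, 0.09, -0.22 and -0.08. COL1A2 ran from 8.96 to 10.17 in Duroc with a median of 9.69, and from 9.21 to 10.40 in PiNN with a median of 9.70, so the breeds overlapped almost fully (-0.06, 95% interval -0.38 to 0.26). COL3A1, the single chain of type III, differed by -0.06 (95% interval -0.29 to 0.17).

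COL5A1 and COL5A2, the type V chains that are built into the core of type I fibrils, differed by -0.17 (95% interval -0.33 to -0.01, adjusted p = 0.264 from limma) and -0.10 (adjusted p = 0.670). All 4 COL5A1 probe sets and both COL5A2 probe sets had lower means in Duroc. COL2A1, known as the main fibrillar chain of cartilage, differed by -0.17 (adjusted p = 0.441), and its 5 probe sets ran from -0.27 to 0.12. COL11A1 and COL11A2, whose products are also built into cartilage fibrils, differed by 0.13 and -0.13 (adjusted p = 0.678 and 0.394). COL24A1 and COL27A1, fibrillar chains of developing bone and cartilage, differed by -0.06 and 0.07.

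**Figure D3:**
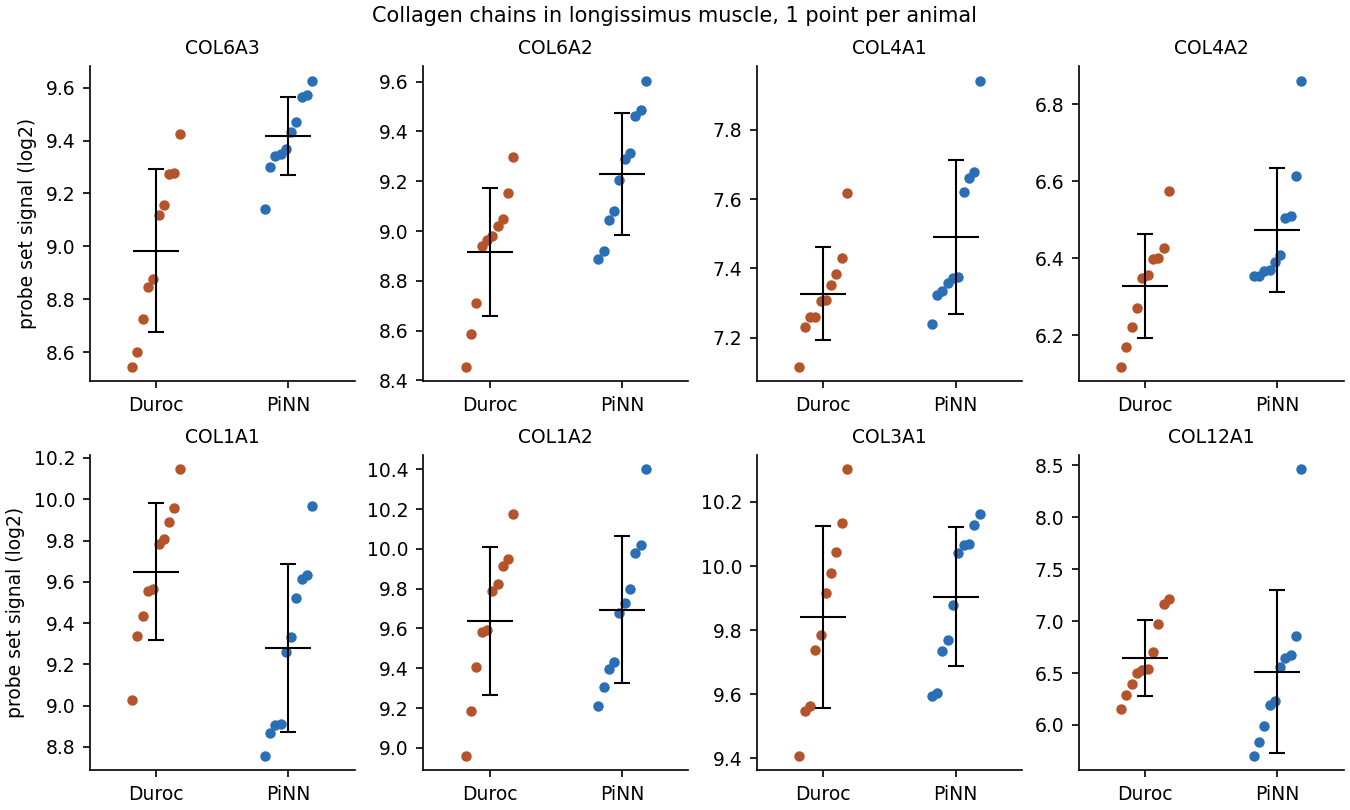
Log2 signal (y axis, own scale in each panel) of the brightest probe set of 8 collagen genes in each animal, Duroc on the left and PiNN on the right, with the mean and SD as black lines and the animals of a breed spread sideways by value. COL6A3 is shifted between breeds with overlap, the type I and III genes overlap widely, and 1 PiNN animal stands far above the others at COL12A1.

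All 6 type IV genes, the chains of the basement membrane network, had lower means in Duroc, and none passed. COL4A1 ran from 7.12 to 7.62 in Duroc with a median of 7.31, and from 7.24 to 7.94 in PiNN with a median of 7.37. COL4A2, its partner in the common type IV trimer, ran from 6.12 to 6.57 in Duroc with a median of 6.35, and from 6.35 to 6.86 in PiNN with a median of 6.40. At COL4A2, 5 Duroc animals lay below the lowest PiNN animal, while the upper parts of both ranges overlapped. The differences were -0.16 for COL4A1 (95% interval -0.35 to 0.02, adjusted p = 0.366 from limma) and -0.14 for COL4A2 (95% interval -0.31 to 0.02, adjusted p = 0.363). COL4A3, COL4A4, COL4A5 and COL4A6, chains known from specialized basement membranes such as that of the kidney glomerulus, differed by -0.04, -0.04, -0.05 and -0.14. Their mean signals lay between 4.45 and 5.03 in both breeds, nearer to the background.

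FACIT chains sit on the surface of fibrils, and 3 of the 8 genes had a lower mean in Duroc, with differences from -0.16 for COL22A1 to 0.19 for COL14A1. COL12A1 ran from 6.15 to 7.21 in Duroc with a median of 6.53, and from 5.70 to 8.46 in PiNN with a median of 6.39. The PiNN range was the wider one, with animal 19 at 8.46 and the next at 6.85. COL12A1 differed by 0.13 (95% interval -0.37 to 0.64) and COL14A1, a close relative, by 0.19 (95% interval -0.10 to 0.48). COL21A1 differed by 0.15 (95% interval -0.31 to 0.61). The cartilage chains COL9A1 and COL9A2 differed by -0.11 and 0.04. COL15A1 and COL18A1, basement membrane chains of the multiplexin class and, for COL18A1, the source of endostatin, differed by -0.10 and -0.11 (adjusted p = 0.676 and 0.693 from limma). COL8A1 and COL8A2, the short chains of vessel walls and corneal membrane, differed by -0.06 and -0.04, and COL10A1, the short chain of growth cartilage, by -0.08. The 4 transmembrane chains ranged from -0.15 to 0.01 and COL7A1, the chain of anchoring fibrils in skin, stood at -0.03.

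Between animals of 1 breed, the chains of types I and III moved together. Correlations were computed for 14 pairs of chains that share a trimer, a fibril or a subclass, in each breed, over n = 10 animals with permutation tests and a Benjamini-Hochberg adjustment over the 28 results. Of these, 12 passed by Pearson r and 10 by Spearman rho, and 13 had an unadjusted Pearson p under 0.05. COL1A1 and COL1A2 had r = 0.97 in Duroc (permutation p = 2e-05, adjusted p = 0.00028; rho = 0.94, adjusted p = 0.00187) and r = 0.92 in PiNN (permutation p = 0.00024, adjusted p = 0.00168; rho = 0.82, adjusted p = 0.0271). COL1A2 and COL3A1 had r = 0.98 in Duroc (permutation p = 1e-05, the smallest that the resampling can give, adjusted p = 0.00028; rho = 0.99, adjusted p = 0.00056) and r = 0.83 in PiNN (permutation p = 0.00345, adjusted p = 0.0115; rho = 0.87, adjusted p = 0.0137). Duroc animals 42 and 38 were the lowest and animal 58 the highest for all of COL1A1, COL1A2 and COL3A1. Without the 2 animals farthest from the median of the first gene, r stayed between 0.88 and 0.99 for these pairs in both breeds. COL1A1 and COL3A1 had r = 0.94 in Duroc (adjusted permutation p = 0.000933) and r = 0.81 in PiNN (adjusted permutation p = 0.0211), where rho was 0.66 and did not pass (adjusted p = 0.0981). With each gene taken as the median of its probe sets, the PiNN values no longer passed for COL1A2 and COL3A1 (r = 0.62, adjusted permutation p = 0.122) and for COL1A1 and COL3A1 (r = 0.53, adjusted permutation p = 0.187).

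Other partner pairs passed in 1 breed or in both. COL12A1 and COL14A1 had r = 0.82 in Duroc (permutation p = 0.00329, adjusted p = 0.0115; rho = 0.77, adjusted p = 0.0448) and r = 0.84 in PiNN (permutation p = 0.00264, adjusted p = 0.0115; rho = 0.96, adjusted p = 0.0014). The PiNN value did not rest on animal 19, since r was 0.89 without animals 19 and 21, while the Duroc value was 0.50 without animals 58 and 31. By the median of the probe sets of each gene, neither breed passed (r = 0.57 in Duroc and 0.72 in PiNN, adjusted permutation p = 0.155 and 0.0703). COL4A1 and COL4A2, neighbouring genes in the porcine genome, had r = 0.89 in Duroc (permutation p = 0.00091, adjusted p = 0.0051; rho = 0.81, adjusted p = 0.031; r = 0.65 without animals 58 and 38). In PiNN their r was 0.61 (adjusted p = 0.113) and fell to 0.09 without animals 36 and 62. COL6A2 and COL6A3 had r = 0.82 in Duroc (permutation p = 0.00369, adjusted p = 0.0115; rho = 0.73, adjusted p = 0.0524; r = 0.59 without animals 59 and 38) and r = 0.53 in PiNN (adjusted permutation p = 0.184; rho = 0.35). After regression on array background the Duroc value was 0.67, and by the median of the probe sets it was 0.60 and did not pass (adjusted permutation p = 0.137). COL3A1 and COL5A2, also neighbours, had r = 0.61 in Duroc (adjusted permutation p = 0.118) and r = 0.77 in PiNN (permutation p = 0.0107, adjusted p = 0.0273; rho = 0.75, adjusted p = 0.0493; r = 0.57 without animals 35 and 22). COL4A3 and COL4A4 had r = 0.74 in Duroc (permutation p = 0.0142, adjusted p = 0.0331; rho = 0.75, adjusted p = 0.0493) and 0.46 in PiNN (adjusted permutation p = 0.271), but r in Duroc was -0.57 when each gene was taken as the median of its probe sets. A difference between breeds in any correlation was not tested. The genome positions of the other pairs are not given here, and a link between position and correlation was not tested.

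For 6 of the 14 pairs the correlation passed in neither breed. COL5A1 and COL5A2 had r = 0.59 in Duroc and -0.11 in PiNN (adjusted permutation p = 0.118 and 0.768). COL8A1 and COL8A2 had r = 0.68 in Duroc and 0.25 in PiNN, and COL9A1 and COL9A2 had 0.26 in Duroc and 0.57 in PiNN, with adjusted permutation p from 0.0688 to 0.55. COL4A5 and COL4A6 had r = -0.27 in Duroc and -0.29 in PiNN, and COL11A1 and COL11A2 had -0.12 in Duroc and -0.33 in PiNN. COL15A1 and COL18A1, which share a subclass but no trimer, had r = -0.43 in Duroc and -0.44 in PiNN (adjusted permutation p = 0.289 for both).

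**Figure D4:**
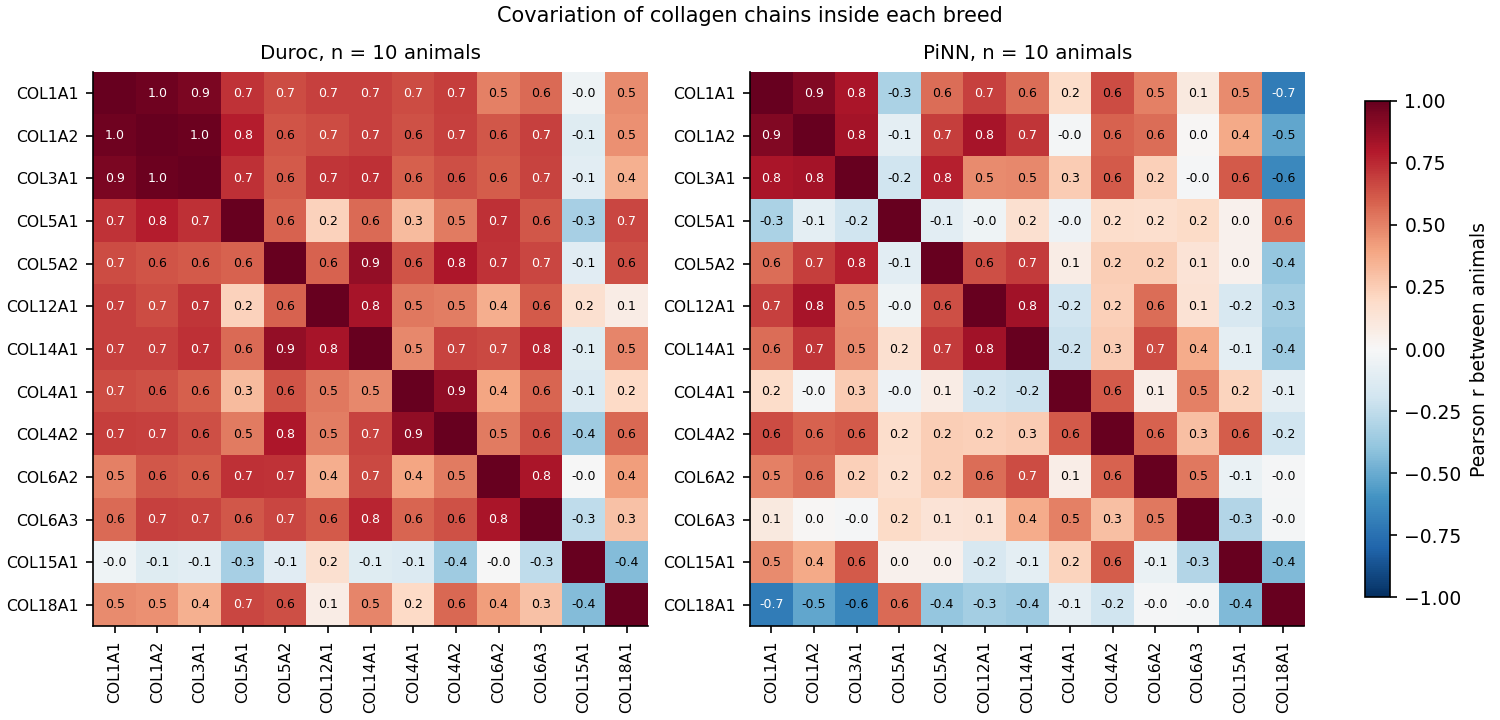
Pearson r between animals for each pair of 13 collagen genes (brightest probe sets), Duroc on the left and PiNN on the right, n = 10 animals each, with red for positive and blue for negative r. In Duroc the block of types I, III, V, XII, XIV, IV and VI is red almost throughout, and in PiNN the red is mainly in types I, III, XII and XIV with COL5A2.

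Over all 666 pairs of the 37 collagen genes above background, the median r was 0.27 in Duroc (jackknife standard error over animals 0.0964) and 0.07 in PiNN (0.0657), and 75.7% of pairs in Duroc and 58.0% in PiNN were positive. For the 101 pairs inside a subclass the medians were 0.36 in Duroc and 0.07 in PiNN. These pairs share genes and arrays, and the values are given as descriptions. Pairs of other genes were not computed, so variation shared across the whole array cannot be told apart from covariation of collagen chains. The Duroc medians depended on the scaling and were 0.16 and 0.22 when each array was centred on its median. Chains of types I, III and V correlated with COL6A2 and COL6A3 at a median r of 0.65 in Duroc (range 0.50 to 0.73) and 0.18 in PiNN (range -0.01 to 0.56) over 10 pairs. With COL4A1 and COL4A2 their median r was 0.64 in Duroc and 0.21 in PiNN.

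Marker levels that moved with the chains between animals are given as descriptions without a test (n = 10 each). The fibroblast marker level had r of 0.50 or more with types I, III, XII and XIV, COL5A2 and COL6A2 in both breeds. With COL5A1, COL4A1, COL4A2 and COL6A3 its r was higher in Duroc. Its r with COL12A1 was 0.85 in Duroc and 0.87 in PiNN, with COL14A1 0.80 in Duroc and 0.83 in PiNN, and with COL1A2 0.81 in Duroc and 0.76 in PiNN. For COL1A1 it was 0.75 in Duroc and 0.74 in PiNN, for COL3A1 0.87 in Duroc and 0.56 in PiNN, and for COL6A3 0.83 in Duroc and 0.38 in PiNN. For COL5A2 it was 0.60 in Duroc and 0.62 in PiNN, and for COL6A2 0.64 in Duroc and 0.50 in PiNN. For COL5A1 it was 0.53 in Duroc and -0.21 in PiNN, for COL4A1 0.60 in Duroc and -0.02 in PiNN, and for COL4A2 0.55 in Duroc and 0.25 in PiNN. For the multiplexin COL15A1 it was near 0, with -0.03 in Duroc and -0.06 in PiNN, and for COL18A1 it was 0.06 in Duroc and -0.65 in PiNN. Leukocyte markers had r = 0.80 with COL3A1, 0.77 with COL12A1 and 0.70 with COL1A1 in Duroc, against 0.19, -0.23 and -0.20 in PiNN. Satellite cell and muscle fibre markers had r = -0.31 and -0.38 with COL3A1 in Duroc, and 0.83 and 0.77 in PiNN. The tenocyte level, though below background, also had r of 0.50 or more with COL1A1, COL1A2, COL12A1 and COL14A1 in both breeds. Its r with COL3A1 was 0.77 in Duroc and 0.19 in PiNN, and with COL6A2 0.09 in Duroc and 0.51 in PiNN. Endothelial markers had r = -0.74 in Duroc and -0.78 in PiNN with COL5A1. With COL1A1 they had -0.62 in Duroc and 0.20 in PiNN. The part of these cell types in the correlations between chains was not tested.

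Among genes that act on collagen, bind it or belong to TGF-beta signalling, PLOD2 was higher in Duroc muscle, and PLOD1, P4HB, NID1 and LTBP1 were lower. Of 14 measured genes of collagen synthesis and secretion, 1 was higher in Duroc and 2 were lower, and 11 did not pass (median difference -0.09). Over all named genes 6.39% passed, and 2.33% were lower in Duroc. PLOD2, the lysyl hydroxylase that modifies the ends of the chains ahead of cross-linking, ran from 6.42 to 7.46 in Duroc with a median of 7.29, and from 5.96 to 6.70 in PiNN with a median of 6.45. Of the Duroc animals, 7 lay above the whole PiNN range, and animals 24, 31 and 32 lay inside it. The difference was 0.70 (standard error 0.14, adjusted p = 0.00633 from limma), and a second PLOD2 probe set differed by 0.98 (adjusted p = 0.0202). PLOD1, which hydroxylates lysines in the helix, ran from 6.74 to 7.14 in Duroc with a median of 6.91, and from 6.92 to 7.46 in PiNN with a median of 7.24. It differed by -0.31 (standard error 0.08, adjusted p = 0.0214). P4HB, the disulfide isomerase that is also a subunit of prolyl hydroxylase, ran from 6.36 to 7.01 in Duroc with a median of 6.66, and from 6.60 to 7.49 in PiNN with a median of 7.09. Its difference was -0.42 (standard error 0.11, adjusted p = 0.0310), whereas its dimmer probe sets differed by -0.19 and 0.03 and did not pass. With single animals left out, P4HB passed in 14 of 20 fits (adjusted p from 0.0508 to 0.0639 without Duroc animals 46 or 58 or PiNN animals 19, 20, 22 or 36), and PLOD1 and PLOD2 passed in all 20. Among the 4 Duroc and 3 PiNN animals with a methylation library P4HB differed by -0.093 (adjusted p = 0.858 from limma).

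**Figure D5:**
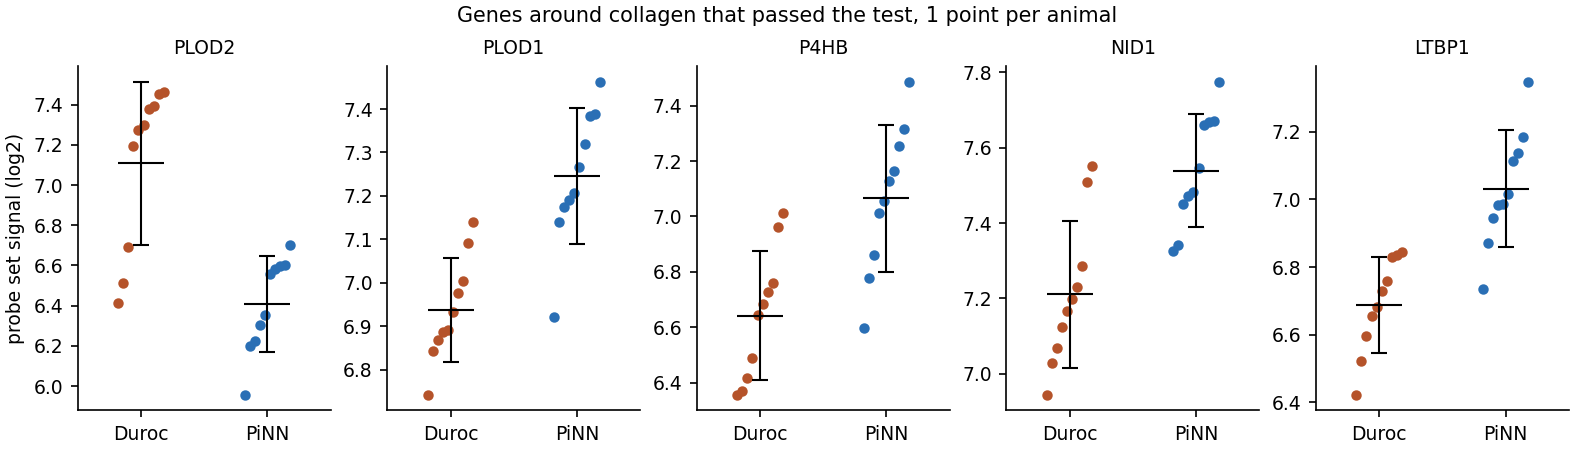
Log2 signal (y axis, own scale in each panel) of the brightest probe set of 5 genes from the lists around collagen in each animal, Duroc on the left and PiNN on the right, with the mean and SD as black lines and the animals of a breed spread sideways by value. PLOD2 is higher in most Duroc animals, and PLOD1, P4HB, NID1 and LTBP1 are lower in Duroc with overlap between breeds.

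Among 12 basement membrane partners of type IV, 1 passed, 10 had a lower mean in Duroc and the median difference was -0.17, where 6.39% of all named genes passed and 54.9% of all tested probe sets had a lower mean in Duroc. NID1, nidogen, which bridges laminin and type IV collagen, ran from 6.95 to 7.55 in Duroc with a median of 7.18, and from 7.33 to 7.78 in PiNN with a median of 7.51. Animals 24 and 58 of the Duroc breed reached the middle of the PiNN range and the others lay below its lowest value. Its difference was -0.33 (standard error 0.09, adjusted p = 0.0310 from limma), a second probe set by -0.38 (adjusted p = 0.0197), and the other 2 by -0.24 and 0.03 without passing. It passed in 13 of 20 fits with 1 animal left out (adjusted p from 0.0530 to 0.0623 without Duroc animals 38, 42, 46 or 59 or PiNN animals 22, 36 or 41).

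Of 11 genes of TGF-beta signalling and of CTGF, inducers of collagen transcription, 1 passed, where 6.39% of all named genes did, and the median difference was -0.04. LTBP1, which stores latent TGF-beta in the matrix, ran from 6.42 to 6.84 in Duroc with a median of 6.71, and from 6.73 to 7.35 in PiNN with a median of 7.001. The breeds overlapped only at the lowest PiNN animal. LTBP1 differed by -0.34 (standard error 0.08, adjusted p = 0.0173 from limma) and by -0.38 (adjusted p = 0.0195) and -0.13 (adjusted p = 0.584) at its other probe sets.

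No gene passed by its brightest probe set among 14 of procollagen trimming and cross-linking, 16 of collagen breakdown and its inhibitors, and 11 collagen receptors. The share that passed over all named genes was 6.39%. The median differences of these lists were -0.05, -0.05 and -0.08. At an unadjusted p under 0.05 there were 1, 4 and 3 genes, where 17.3% of all tested probe sets reached it. Among trimming and cross-linking genes the smallest p-values were those of ADAMTS3, a procollagen protease (0.30, adjusted p = 0.0625 from limma), and MEP1B, a meprin protease that also cleaves procollagen (-0.19, adjusted p = 0.301), both with means below background. Among breakdown genes they were those of MMP2, a gelatinase (-0.29, adjusted p = 0.166), and MMP19, a matrix metalloproteinase (-0.26, adjusted p = 0.169). A dimmer MMP2 probe set differed by -0.38 and passed (adjusted p = 0.0415). Among receptors they were those of ITGA1, the integrin chain that binds type I and IV collagen (0.38, adjusted p = 0.100), and GP6, a platelet collagen receptor (-0.23, adjusted p = 0.238). A dimmer ITGA1 probe set, with a mean below background in PiNN, differed by 1.52 and passed (adjusted p = 0.0165).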

How the data were processed

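Transcripts were measured on 20 arrays of longissimus muscle, 10 from Duroc and 10 from PiNN pigs, grouped by the breed in the sample labels. The authors deposited 1 table of log2 probe set signals, and the submitters' processing notes name GCOS version 1.1.1. How probes were summarized and arrays normalized is not given in the sources used here. Of 47845 probe sets in the table, 45922 porcine ones entered the test. The other 1923 are controls, background probe sets or probe sets of other species. Of those tested, 26058 carry a gene symbol. Correlations between arrays ran from 0.953 to 0.986, and no array was left out. A signal counted as above background if its mean exceeded that of the 69 background probe sets.

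The difference between breeds was fitted with lmFit and eBayes of limma version 3.58.1 (R version 4.3.3) without covariates, and the two-sided p-values received a Benjamini-Hochberg adjustment over all tested probe sets with a threshold of 0.05. Correlations between animals used Python version 3.11.15 with scipy version 1.17.1 and two-sided permutation tests with 100000 resamples. The procedure was tested on simulated data. The collagen genes, the partner pairs, the 6 lists of genes around collagen, the 9 lists of cell type markers and the naming rule were chosen with earlier results of these data known. The rule names every collagen gene with a passing probe set, the chains of types I, III, IV, V, VI, XII, XIV, XV and XVIII, the partner pairs, the 5 largest differences on each side, and from each list up to 4 passing genes or, where none passed, the 2 of smallest p.

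Alternatives were the ANOVA of the methods, q-values, only probe sets above background, quantile normalization, arrays centred on their medians, a robust fit with a variance trend, weights for arrays, array background as a covariate, only animals with or without a methylation library, the median over the probe sets of a gene, Spearman's rho, and leaving out each animal in turn. Covariates from fibroblast or muscle fibre markers and the omission of probe sets with an s or x suffix were chosen after seeing the data. Arrays were matched to methylation libraries by animal number. A Duroc library has a number that no array carries, although the paper places all its Duroc library animals in the array study. The group without a library may therefore hold an animal that has one. Porcine gene neighbours were read from the RefSeq genes of Sscrofa11.1.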

Additional observations from a re-analysis of the deposited data

Results flagged for a closer look

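The highest or the lowest animal stood apart from the other 9 of its breed in 5 of 54 breed groups checked for the 27 named collagen genes, at a level that chance reaches in about 1 of 20 groups. All 5 were PiNN animals. COL12A1 had a signal of 8.46 in animal 19 and 6.85 in the next highest, and COL11A1 had 5.70 in animal 19 and 4.87 in the next. COL4A2 had 6.86 in animal 36 and 6.61 in the next. COL21A1 had its lowest signal, 3.94, in animal 47 and 5.15 in the next lowest, and COL4A6 had 4.35 in animal 41 and 4.92 in the next lowest. Without animal 19 the difference of COL12A1 between breeds was 0.35 and that of COL11A1 was 0.23 (0.13 for each with all animals), and without animal 47 that of COL21A1 was -0.03.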

How the results depend on the processing

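Summarized by gene, COL6A3 kept its direction in all alternatives and its call in all but 4. It differed by -0.46 with quantile normalization (adjusted p = 0.0566), by -0.50 among the 4 Duroc and 3 PiNN animals with a methylation library (0.303), by -0.39 among the 6 Duroc and 7 PiNN animals without one (0.147), and did not pass without PiNN animal 36. The number of collagen probe sets that passed was 0 among animals with a methylation library, where 0.847% of all tested probe sets passed. It was 1 among those without, where 1.27% did, and 1 when probe sets with an s or x suffix were omitted (4.29%). With single animals left out it ran from 4 (without PiNN animal 36, where 2.56% of all passed) to 8. The number of collagen genes was 0 with quantile normalization (4.78% of all tested probe sets passed) and in both groups of animals. It was 0 to 1 with single animals left out. COL6A2 passed at SNOWBALL_036068_st alone, with the ANOVA of the methods, q-values, probe sets above background only, centred arrays, array weights or the fibroblast covariate (adjusted p from 0.0246 to 0.0499), and without Duroc animals 31 or 32 or PiNN animals 21, 35 or 62 (0.0218 to 0.04955). No other collagen gene passed in any alternative.

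With probe sets above background alone, 2 basement membrane partners passed. With array background as a covariate, 1 breakdown gene and 2 TGF-beta genes passed. With single animals left out the number of genes ran from 0 to 2 for basement membrane partners (0 without Duroc animals 38, 42, 46 or 59 or PiNN animals 22, 36 or 41, and 2 without PiNN animals 19 or 62), from 1 to 2 for TGF-beta genes (2 without Duroc animal 24 or PiNN animals 49 or 62), from 0 to 1 for receptors (ITGA1 without PiNN animal 62) and from 0 to 1 for trimming and cross-linking (without Duroc animal 32 or PiNN animal 49). Among animals with a methylation library PLOD1 (-0.20), P4HB (-0.093), NID1 (-0.28) and LTBP1 (-0.24) did not pass (adjusted p from 0.504 to 0.858), and among those without one PLOD2 (0.53), PLOD1 (-0.36), NID1 (-0.36) and LTBP1 (-0.40) did not (adjusted p from 0.0701 to 0.171). The median r in Duroc was 0.16 over all pairs and 0.22 within subclasses with arrays centred. The correlation of COL4A3 and COL4A4 in Duroc was -0.57 with the median over probe sets and did not pass without Duroc animals 24, 32, 42 or 58 (r from 0.64 to 0.73), nor did that of COL3A1 and COL5A2 in PiNN without animals 19, 22, 35 or 62 (r from 0.70 to 0.75).

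Summarized by gene, signs turned only for genes that passed nowhere. The COL6A3 probe set SNOWBALL_024028_st, which did not pass, ran from -0.034 to 0.16 with single animals left out. Among animals with a methylation library COL14A1 differed by -0.10, COL28A1 by 0.034, COL4A1 by 0.0031, COL4A4 by 0.00396, COL4A5 by 0.038 and COL9A2 by -0.11. Among those without one COL18A1 differed by 0.072, COL1A2 by 0.034, COL4A3 by 0.013, COL6A6 by -0.093, COL8A1 by 0.025 and COL9A1 by 0.00121. COL4A3 differed by 0.0100 with the background covariate, COL8A1 by 0.13 without s or x probe sets and 0.093 with the median over probe sets, and COL4A4 by 0.062 with that median. With single animals left out the ranges were -0.12 to 0.021 for COL1A2, -0.030 to 0.23 for COL21A1, -0.12 to 0.033 for COL4A3, -0.089 to 0.0048 for COL4A4, -0.070 to 0.089 for COL6A6 and -0.020 to 0.098 for COL9A2. The causes were not tested. No paired analysis was possible because Duroc and PiNN share no animal numbers. Signals near background, such as those of COL28A1, COL10A1 and COL19A1, limit what can be seen for these chains.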
